A study of Mus musculus with 18 samples.

Results

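The genes described here are 10 enzymes of fatty acid synthesis, elongation, desaturation and reduction: Acly, Acaca, Fasn, Elovl6, Elovl5, Scd1, Scd2, Fads1, Fads2 and Far2. They are 10 of the 24062 gene symbols in the deposited count table, and they were chosen by name, with earlier results of these data known. Scd1 and Far2 were then already known to lie among the larger falls in cells losing both Ddx41 alleles, so every value from that comparison is a description without a test. All 10 passed the filter on low counts.

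RNA was sequenced from mouse hematopoietic progenitor lines grown from lineage-negative bone marrow and immortalized with a retrovirus carrying MLL-AF9, a leukemia fusion gene. Every line also expresses CreERT from the Rosa locus, a recombinase that 4-hydroxytamoxifen (4OHT) switches on. The lines had no floxed allele of Ddx41, a DEAD-box RNA helicase (WT, +/+), 1 floxed allele (Het), or both alleles floxed (FF, flox/flox), and were given 1 µM 4OHT or ethanol (EtOH) for 48 h. The 18 libraries, 3 per group with the letters A, B and C, came from cells in medium with 10% fetal calf serum and IL-3, SCF and IL-6 at 10 ng/ml. After 4OHT the labels call the FF cells -/- and the Het cells +/-. The labels do not say that the letters are separate cultures or how many lines stand behind a genotype. The spread behind each p-value is thus that of 3 libraries and may be a technical one, and a genotype cannot be told apart from its line. In bulk RNA, fewer cells of a type and less RNA per cell cannot be told apart either.

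Cells build fatty acids from acetyl-CoA. Acly cuts citrate to supply acetyl-CoA in the cytosol, Acaca carboxylates it to malonyl-CoA, and Fasn joins the units into palmitate. Elovl6 lengthens palmitate and Elovl5 lengthens polyunsaturated chains, while Scd1 and Scd2 place the first double bond in saturated chains to make oleate and palmitoleate. Fads1 and Fads2 insert further double bonds into dietary polyunsaturated fatty acids, and Far2 reduces fatty acyl-CoA to fatty alcohol. Many of these genes are known targets of SREBP and LXR transcription factors, which sense sterols, and serum in the medium also supplies cells with ready-made lipid.

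Promoter sequence was looked at because all 10 genes moved in the same direction in FF cells, the comparison known when they were chosen. The RefSeq promoter table (GRCm38.p6) holds 7 of the 10 genes, and Scd1, Scd2 and Fads1 were not among them. Its Acaca entry, chr11:84195188-84195437, lies inside the gene as annotated below (84129672 to 84401651), not before the first base given there. That of Fads2, chr19:10101504-10101753 on the minus strand, lies almost wholly inside its gene, which begins at 10101746. Those of Far2 (chr6:148047166-148047415) and Elovl6 (chr3:129532136-129532385) run past the annotated first bases, 148047259 and 129532355. The starts of the promoter table are thus not always those of the annotation. In all, 4 motifs were searched on both strands in the 250 bases before each start of the promoter table. They were CCAAT (the box bound by NF-Y), TCACCCCAC and its looser form TCACNCCAC (sterol elements bound by SREBP), and CACGTG (an E-box, which is its own reverse complement). Of the 7 promoters, CCAAT was found in 2, those of Fasn and Elovl5, and 33.8% of the 32851 mouse promoters in the table hold it. CACGTG was found in 1, that of Elovl5, beginning 161 bases before the start, and 6.02% of all promoters hold it. TCACCCCAC and TCACNCCAC were in 0 of the 7, against 0.496% and 1.05% of all promoters, and every match to the first of these is also a match to the second. The promoters with CCAAT are printed because they show where the boxes lie, 5′ to 3′ along the gene, with each CCAAT or its reverse complement in capitals. That of Fasn is at chr11:120824548-120824797 on the minus strand, and that of Elovl5 at chr9:77917115-77917364 on the plus strand.
Fasn: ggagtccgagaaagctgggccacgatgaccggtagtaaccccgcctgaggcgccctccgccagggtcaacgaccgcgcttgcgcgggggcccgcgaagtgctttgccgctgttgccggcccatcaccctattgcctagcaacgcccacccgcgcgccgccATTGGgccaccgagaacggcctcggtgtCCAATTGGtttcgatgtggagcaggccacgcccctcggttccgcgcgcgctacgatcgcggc
Elovl5: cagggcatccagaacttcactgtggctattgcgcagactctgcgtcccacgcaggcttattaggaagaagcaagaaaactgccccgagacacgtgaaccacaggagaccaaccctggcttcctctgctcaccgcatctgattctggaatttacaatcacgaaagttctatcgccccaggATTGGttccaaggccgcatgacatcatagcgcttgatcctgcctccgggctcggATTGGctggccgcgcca
In Fasn a box on the same strand begins 62 bases before the start and overlaps one on the opposite strand at 59, and the third lies at 90. Both boxes of Elovl5 are on the opposite strand, at 17 and 71 bases before the start. These are matches of letters, not measured sites.

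In GENCODE M21 (GRCm38) Scd1 lies on chromosome 19 at 44394455 to 44407879 on the minus strand, and Scd2 lies 87.6 kb from it at 44293674 to 44306864 on the plus strand. Fads1 (10182888 to 10196877, plus strand) and Fads2 (10062765 to 10101746, minus strand) are 81.1 kb apart on the same chromosome. Fasn (120805846 to 120824547, minus strand), Acaca (84129672 to 84401651, plus strand) and Acly (100476353 to 100528000, minus strand) are all on chromosome 11. Elovl5 is on chromosome 9 at 77917364 to 77984519, Elovl6 on chromosome 3 at 129532355 to 129638495, and Far2 on chromosome 6 at 148047259 to 148182758, all on the plus strand. All 10 are annotated as protein coding, and the values are reads summed over a whole gene.

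Some of their sequence is shared with other genes, and no source used here gives the strand and multi-mapping settings of the counting. Of the 50-base words in its exons, Acaca shares 30.4% with others, mostly with Gm5182, and Far2 shares 10.8%, mostly with its neighbour Ergic2. Scd1 shares 4.56%, mostly with Scd3, which had at most 11 counts in any library. Elovl6 shares 3.98% (mostly Gm11295), Scd2 3.97% (mostly Scd1), Fads2 0.152% (Fads3), and Fasn, Acly, Elovl5 and Fads1 share 0. Counts of Acaca and Far2 are therefore less certain than those of the others.

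Libraries held 24730213 to 49277884 counts, and values below are CPM, read counts per 1000000 counts of the TMM-scaled library total. Ddx41 itself was at 112, 82.0 and 73.7 CPM in FF ethanol libraries A, B and C and at 14.6, 16.5 and 17.7 CPM in FF 4OHT, while Het went from 68.0 to 79.1 CPM in ethanol to 41.3 to 58.4 CPM in 4OHT. Against their labels, the library labelled FF_EtOH C had 86.3 CPM of the Y-linked gene Eif2s3y where the other 5 FF libraries had 0. The library labelled WT_4OHT C had 0 where the other 5 WT libraries had 66.4 to 101 CPM. It also had 479.9 CPM of Tgm2, a transglutaminase gene, against 17.3 CPM in WT_4OHT B and 440.4 and 275 CPM in FF_EtOH A and B. Whether these libraries were exchanged was not settled, so WT and FF values that include them may not be those of their label. The library labelled WT_EtOH C had 25.4 CPM of Tgm2, near WT_4OHT A and B, the lower of which had 17.3 CPM, and far from the 219.7 and 227 CPM of WT_EtOH A and B. These libraries were kept under their labels, and results are also given without all 3. Het_4OHT A stood apart in another way, with Rn45s, the ribosomal RNA precursor, at 14895 CPM against 1964 and 3308 CPM in the other Het 4OHT libraries.

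Progenitor and blood markers (7 of 7 measured) summed to 1186 to 1915 CPM over the 18 libraries, and Ptprc, Kit, Myb and Spi1 were present in all of them, while Cd34 ran from 0 to 4.93 CPM. The 4 globin genes and the lymphoid genes Cd3e, Cd3g and Ms4a1 were at 0 throughout. The 4 hepatocyte markers summed to at most 0.163 CPM, and Adipoq and Lep, which define adipocytes, reached at most 0.0690 and 0.0964 CPM.

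Per kilobase of exon, the scale on which genes can be set beside each other, Scd2 was the most abundant of the 10 in every group, with means of 155 to 432 CPM per kb. Acly (80.9 to 138) and Fasn (62.0 to 103) followed, and Far2 was the lowest in every group at 0.300 to 2.54 CPM per kb. Scd1 ranged more widely, from 3.49 CPM per kb in FF 4OHT to 44.1 in Het ethanol. Scd1 made up 2.65% to 3.04% of the summed Scd1 and Scd2 level per kb in WT ethanol and 8.34% to 10.1% in Het ethanol. That share was 4.20% and 5.23% in FF ethanol A and B, 3.43% in the library labelled FF_EtOH C, and 2.04% to 2.40% in FF 4OHT. In Het 4OHT it was 7.70% to 9.86%, overlapping Het ethanol. In WT 4OHT it was 2.01% and 2.53% in A and B, and 4.33% in the library labelled WT_4OHT C. Scd2 thus held most of the stearoyl-CoA desaturase RNA in all 18 libraries.

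**Figure D1:**
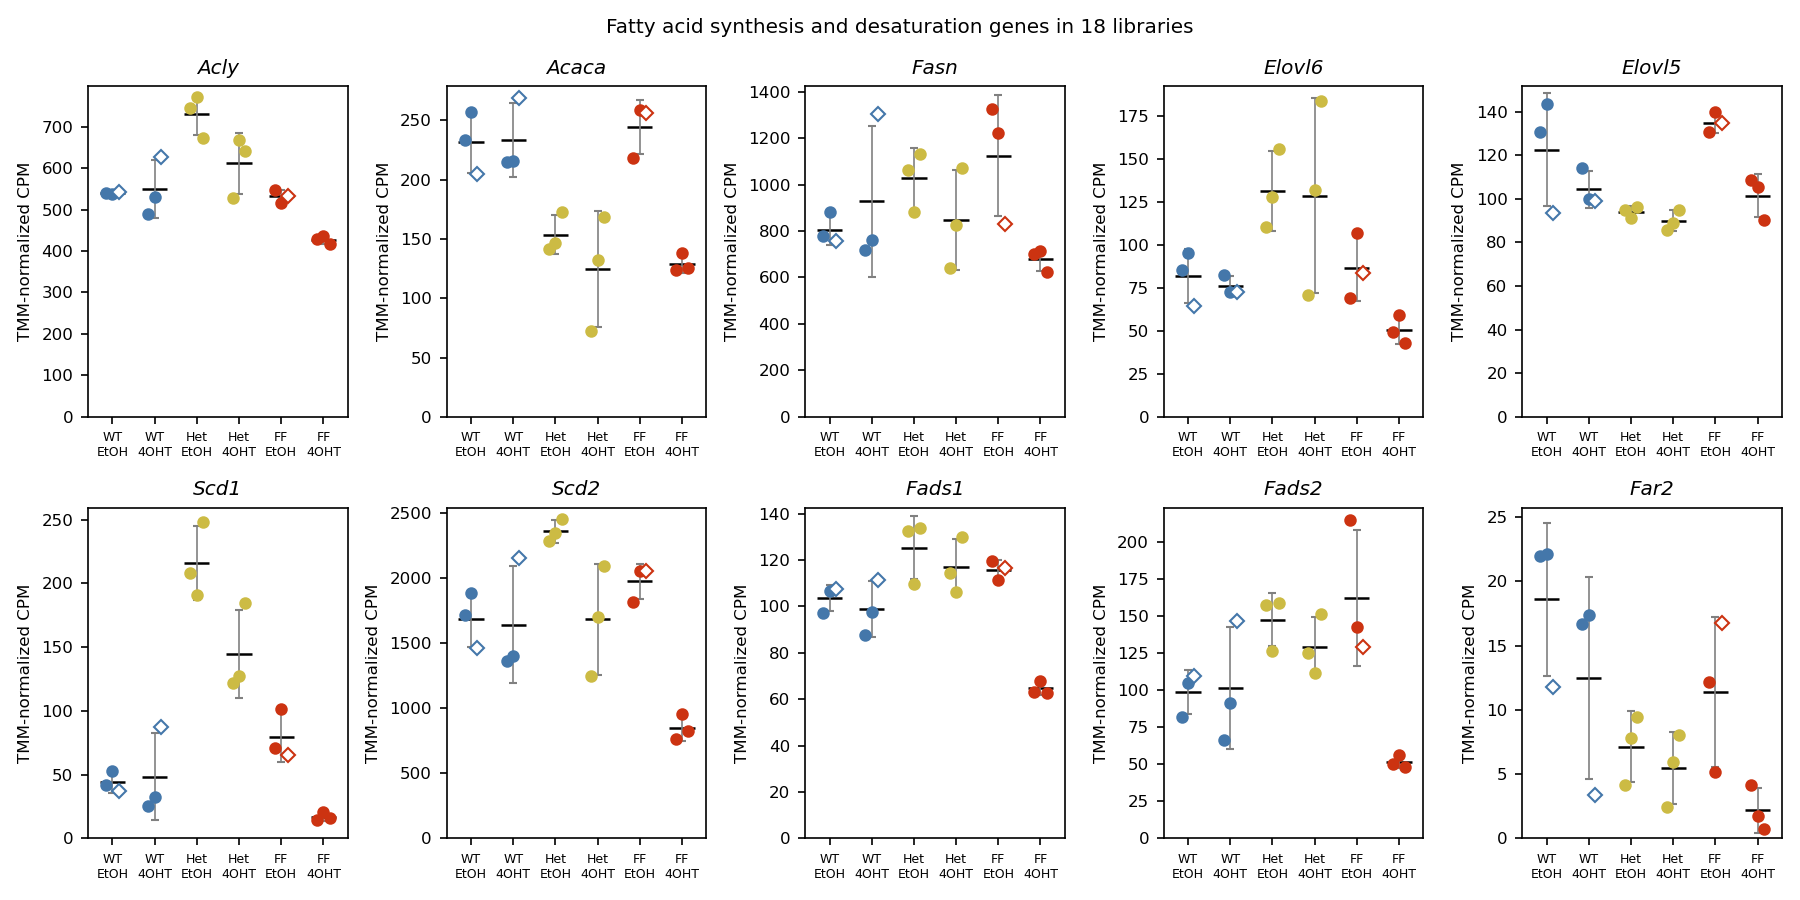
Level of each of the 10 genes in 18 libraries, in TMM-normalized CPM on linear axes from 0. Circles are libraries, open diamonds are the libraries labelled WT_EtOH C, WT_4OHT C and FF_EtOH C, black lines are group means and grey bars are ± SD (n = 3). All FF 4OHT libraries lie below all FF ethanol libraries in each panel, and Het ethanol stands highest for Scd1 at 191 to 248 CPM.

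In FF cells given 4OHT all 10 genes were lower than in ethanol, and Far2, Scd1, Fads2 and Scd2 had the largest log2 fold changes of the 10. For each of the 10, every 4OHT library lay below every ethanol library, where 21.5% of the 12859 tested genes did so and 52% were below 0 in the fit. Passing the threshold of an adjusted p of 0.05 (edgeR, over all tested genes) were 8 of the 10, all lower, where 8.29% of all genes were called lower. Acly and Elovl6 did not pass. The median log2 fold change was -0.88 for the 10 genes and -0.02 for all tested genes. Since the genes were chosen with this comparison known, nothing is read from these counts.

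Acly, which supplies acetyl-CoA, was at 546, 516 and 532 CPM in FF ethanol A, B and C and at 429, 436 and 416 CPM in FF 4OHT. The groups were narrow and did not overlap, and the log2 fold change was -0.32 ± 0.11 (SE). Acaca, the carboxylase that commits acetyl-CoA to fatty acids, went from 219, 259 and 256 CPM to 124, 138 and 125 CPM. This is 1.89 times lower (log2 -0.92 ± 0.21). Fasn, the fatty acid synthase, was at 1324, 1221 and 829 CPM in ethanol and 703, 713 and 622 CPM in 4OHT (log2 -0.73 ± 0.23). Its lowest ethanol value is that of the library labelled FF_EtOH C, and without the 3 libraries the log2 fold change was -0.90.

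Elovl6, which extends palmitate, was at 69.0, 107 and 83.8 CPM in FF ethanol and 49.5, 59.4 and 43.1 CPM in 4OHT (log2 -0.77 ± 0.27). Its ethanol libraries were spread more widely than those of Acly, with a SD of 19.2 CPM around a mean of 86.6 CPM (n = 3). Elovl5, which acts on polyunsaturated chains, went from 130.5, 140.0 and 135 CPM to 109, 105 and 90.1 CPM (log2 -0.41 ± 0.13), 1.33 times lower.

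Scd1 was at 71.2, 101 and 65.2 CPM in FF ethanol and 14.2, 21.0 and 16.1 CPM in FF 4OHT, 4.64 times lower (log2 -2.21 ± 0.36). These 4OHT values were the lowest of all 6 groups and overlapped none of the others. Scd2 went from 1816, 2054 and 2051 CPM to 761, 954 and 826 CPM, 2.33 times lower (log2 -1.22 ± 0.19). Its 4OHT libraries, too, lay below every library of the other 5 groups.

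Fads1, the delta-5 desaturase, was at 119, 111 and 117 CPM in FF ethanol and 63.3, 68.0 and 62.7 CPM in 4OHT (log2 -0.84 ± 0.11). Fads2, the delta-6 desaturase, was at 215, 143 and 129.6 CPM in ethanol and 49.9, 56.5 and 48.3 CPM in 4OHT (log2 -1.66 ± 0.25), 3.15 times lower. Both had narrow 4OHT groups below all other libraries of the series. Far2 was the least abundant gene and the most scattered, at 12.2, 5.19 and 16.8 CPM in ethanol and 4.12, 1.75 and 0.707 CPM in 4OHT. Those 4OHT levels rest on 104, 54 and 17 counts, and the log2 fold change was -2.37 ± 0.68, or -1.98 without the 3 libraries. Ergic2, which overlaps Far2 in sequence, had a log2 fold change of -0.11 ± 0.16.

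Scd1, Scd2, Fads1 and Fads2 were past the threshold in all 13 other settings and in all 18 fits that left out 1 library. Of the other members called, Acaca passed in 17 of the 18, Far2 in 14, Fasn in 6 and Elovl5 in 4. The number called lower was 5 without FF_EtOH A, 5 without FF_4OHT B and 4 without FF_4OHT C. Without the 3 libraries it was 8, where 7.93% of all genes were called lower.

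Other features moved with this comparison. Monocyte and macrophage markers (7 of 8 measured) summed to 344 to 432 CPM in FF ethanol and 1418 to 1927 CPM in FF 4OHT, and 6 of the 7 passed as higher. Lyz2 led that sum, Adgre1 was not in the table, and no marker measured was at 0. Rn45s was at 5987, 18286 and 41159.5 CPM in FF 4OHT A, B and C against 3828 to 6464 CPM in FF ethanol. Adipocyte markers (8 of 8 measured) summed to 33.0 to 67.2 CPM in FF ethanol and 78.6 to 113 CPM in FF 4OHT, nearly all of it Lpl, which macrophages also express. Of the 3 adipocyte markers that could be tested, 1 passed as lower and 0 as higher. Neutrophil granule genes (10 of 10 measured) summed to 7742 to 11856 CPM in FF ethanol and 6308 to 7874 CPM in FF 4OHT, with 1 lower and 1 higher past the threshold. The part of these in the lower levels of the 10 genes was not tested.

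**Figure D2:**
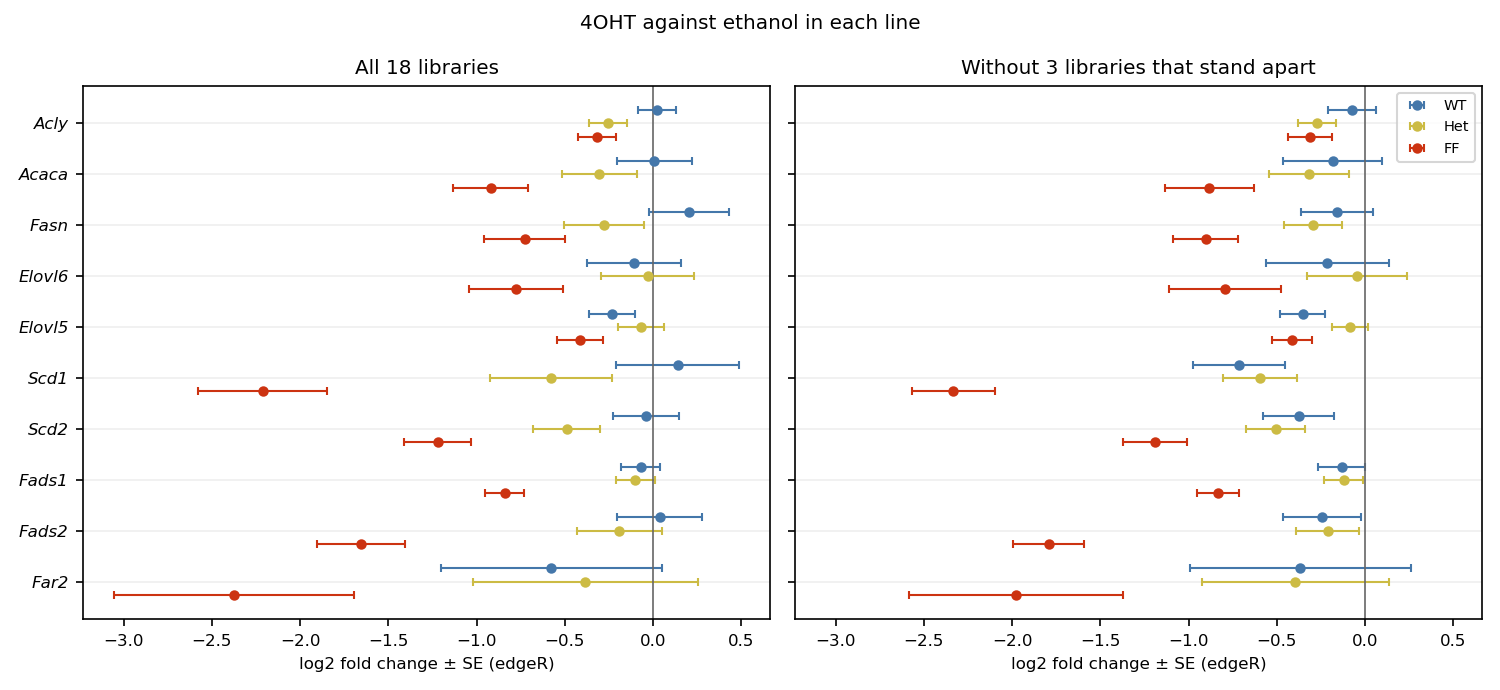
Log2 fold change of 4OHT against ethanol in each line, with ± SE bars from the edgeR fit, for all 18 libraries (left) and without the libraries labelled WT_EtOH C, WT_4OHT C and FF_EtOH C (right). FF values (red) lie left of 0 for all 10 genes in both panels, from -2.37 (Far2) to -0.32 (Acly) on the left. WT values (blue) for Scd1, Fasn, Acaca, Acly and Fads2 lie at or right of 0 on the left and left of 0 on the right.

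Het cells keep a normal Ddx41 allele. The rule that lists the genes does not name their response to 4OHT, but the genes were still chosen with earlier results of these data known. None of the 10 passed the threshold there: edgeR called 0 of 10, and so did DESeq2 and limma voom, with an edgeR adjusted p of 1 for each gene. At an unadjusted p under 0.05 edgeR had 2 of 10, Scd2 and Acly, both lower. Over all 12859 genes 0.0156% were called lower and 1.13% were lower at the unadjusted p. The fitted log2 fold change was below 0 for 10 of 10, where 49.5% of all genes were below 0, and the median of the 10 was -0.27 against 0.000863 for all genes.

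Scd1 was at 208, 191 and 248 CPM in Het ethanol A, B and C and 122, 127 and 185 CPM in Het 4OHT. Scd2 went from 2282, 2345 and 2456 CPM to 1248, 1701 and 2095 CPM, and Acly from 744, 771 and 674 CPM to 528, 667 and 641 CPM. These were the 3 of 10 genes whose 4OHT libraries all lay below the ethanol libraries, where 2.71% of all genes did. The log2 fold changes were -0.58 ± 0.34 for Scd1, -0.49 ± 0.19 for Scd2 and -0.25 ± 0.11 for Acly.

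Set beside the ethanol library of the same letter, which pairs Het libraries, the 4OHT library was lower in all 3 pairs for 9 of the 10 genes, all but Elovl6, where 14.8% of all genes were. This count was added after the data had been seen, and with the pairing in the fit edgeR still called 0 of 10.

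The remaining 7 genes had overlapping groups, with log2 fold changes from -0.38 ± 0.64 (Far2) to -0.03 ± 0.26 (Elovl6). Acaca was at 142, 147 and 173 CPM in ethanol and 72.3, 132 and 169 CPM in 4OHT, and Elovl6 at 110.2, 128 and 156 CPM against 70.6, 132 and 184 CPM. Het_4OHT A was the lowest library of its group for 8 of the 10 genes. With it and the 3 libraries left out, Elovl6 had a log2 fold change of 0.26, 9 of 10 were below 0, and the median was -0.10. The part of the high Rn45s level of that library was not tested. Monocyte and macrophage markers summed to 322 to 676 CPM in Het ethanol and 412 to 1068 CPM in Het 4OHT, with 0 of 7 past the threshold.

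WT cells have no floxed allele, so their response addresses what 4OHT and active Cre do without recombination at Ddx41. edgeR, DESeq2 and limma voom each called 0 of the 10, and 0 were past an unadjusted p under 0.05 in edgeR, whose adjusted p was 1 for each gene. Over all genes 0% were called lower, and at the unadjusted p 0.218% were lower and 1.92% higher. With all libraries 5 of 10 were below 0, where 49.2% of all genes were. No gene of the 10 had groups that did not overlap, where 1.97% of all genes lay wholly lower and 2.85% wholly higher.

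The library labelled WT_4OHT C differed from the other 2 of its group in most genes. Scd1 was at 41.8, 52.9 and 37.0 CPM in WT ethanol and 25.0, 32.5 and 87.4 CPM in WT 4OHT, a log2 fold change of 0.14 ± 0.35. Fasn was at 779, 882 and 758 CPM in ethanol and 719, 763 and 1302 CPM in 4OHT, and Fads2 at 82.2, 105 and 109.6 CPM against 66.2, 91.2 and 147 CPM. In all 3 genes library C was the highest of the WT 4OHT group. Far2 went the other way, with 16.7 and 17.4 CPM in A and B and only 3.41 CPM in C.

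Without the 3 libraries, 10 of 10 genes were below 0, where 48.4% of all genes were, and the median log2 fold change was -0.23. The largest was that of Scd1, -0.71 ± 0.26, followed by Scd2 at -0.38 ± 0.20. For 8 of the 10, all but Fads1 and Fads2, both 4OHT libraries then lay below both ethanol libraries, where 24.6% of all genes did. edgeR called 0 of 10, where 0.0307% of all genes were called lower, with 2 lower past the unadjusted threshold, Scd1 and Elovl5, where 0.745% were. The adjusted p of Scd1 was 1 there and at least 0.794 over all its alternatives.

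The responses were then compared between lines. These differences contain the FF response and are descriptions too. Against WT, the FF response was lower by a log2 difference of -2.35 ± 0.50 for Scd1, -1.18 ± 0.27 for Scd2, -0.77 ± 0.16 for Fads1 and -1.69 ± 0.35 for Fads2. These 4 genes were past the edgeR threshold, where 1.89% of all genes were called lower. Without the 3 libraries the differences were -1.62 for Scd1, -0.81 for Scd2, -0.70 for Fads1 and -1.55 for Fads2, and only Fads2 passed, where 0.484% of all genes were called lower. With 1 library left out, 0 passed without WT_EtOH A, WT_EtOH B, FF_4OHT A or FF_4OHT C, and 2 without WT_EtOH C, WT_4OHT C or FF_EtOH B. The share of all genes in those fits was not computed, so a change over all genes cannot be told apart.

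Against Het, Fads1 (-0.74 ± 0.16) and Fads2 (-1.46 ± 0.34) passed, where 2.09% of all genes were called lower. Scd1 (-1.64 ± 0.49) and Scd2 (-0.73 ± 0.27) did not. Without the 3 libraries Scd1 (-1.74) passed with them, where 1.99% of all genes were called lower. With 1 library left out, 0 of 10 passed without FF_4OHT A, FF_4OHT C, Het_EtOH A, Het_EtOH B or Het_4OHT C, 1 without WT_EtOH B, FF_EtOH A, FF_4OHT B or Het_EtOH C, and 4 without Het_4OHT A. Here too the share of all genes in those fits was not computed. The Het and WT responses share no library with each other, and edgeR called 0 of 10 genes for their difference, where 0% of all genes were called lower, and DESeq2 and limma voom also called 0. At an unadjusted p under 0.05 edgeR had 0 of 10, against 1.58% of all genes lower and 0.233% higher.

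The lines also differed in ethanol, and of the 10 genes Scd1 had the largest log2 difference. In ethanol, Het cells had 4.91 times the Scd1 level of WT cells (log2 2.30 ± 0.36, edgeR adjusted p = 0.000279), with 191 to 248 CPM against 37.0 to 52.9 CPM. The groups were far apart, and Scd1 passed in all 12 alternatives and all 18 fits with 1 library left out, with adjusted p from 9.08e-10 to 0.00249. Acly was 1.35 times higher in Het (log2 0.43 ± 0.11, edgeR adjusted p = 0.00763), at 674 to 771 CPM against 537 to 543 CPM. It also passed in every one of those fits (adjusted p 0.000179 to 0.0308). Elovl5 was lower in Het (log2 -0.38 ± 0.13, edgeR adjusted p = 0.0439), at 94.9, 91.1 and 96.1 CPM against 131, 144 and 93.5 CPM in WT. The low WT value is that of the library labelled WT_EtOH C. The Elovl5 call was kept in 3 of 12 alternatives and in 6 of 18 fits with 1 library left out, and it was lost without any 1 of the Het ethanol libraries, WT_EtOH A or WT_EtOH B, among others.

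Thus 2 of 10 genes were called higher in Het, where 13.3% of all genes were, and 1 was called lower, where 10.4% were. The other 7 did not pass, with edgeR adjusted p from 0.0534 (Acaca) to 0.305 (Fasn). Acaca had a log2 difference of -0.59 ± 0.21 and Far2 of -1.38 ± 0.64, and for both every Het library lay below every WT library. Every Het library lay above every WT library for Scd1, Scd2 (0.48 ± 0.19), Acly, Elovl6 (0.68 ± 0.26), Fads1 (0.27 ± 0.11) and Fads2 (0.58 ± 0.24). Such separation was found for 22.5% of all genes in the higher and 22.8% in the lower direction. Without the 3 libraries, where 14.5% of all genes were called higher, Fads2 passed as well (log2 0.71), as it did in 5 of 12 alternatives. The number called higher was 4 without WT_4OHT C and 4 without Het_4OHT A, fits for which the share of all genes was not computed. Stromal markers (6 of 6 measured) summed to 15.1 to 19.7 CPM in Het ethanol and 1.74 to 5.36 CPM in WT ethanol, led by Pdgfrb, with Col1a2, Col3a1 and Cxcl12 at most 0.271 CPM in any library. Neutrophil granule genes (10 of 10 measured) summed to 6073 to 8416 CPM in Het ethanol and 13128 to 13433 CPM in WT ethanol, with 7 of 10 called lower in Het. Progenitor and blood markers summed to 1358 to 1457 CPM in Het ethanol and 1673 to 1915 CPM in WT ethanol, with 3 of 7 called lower. The part of these in these line differences was not tested.

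**Figure D3:**
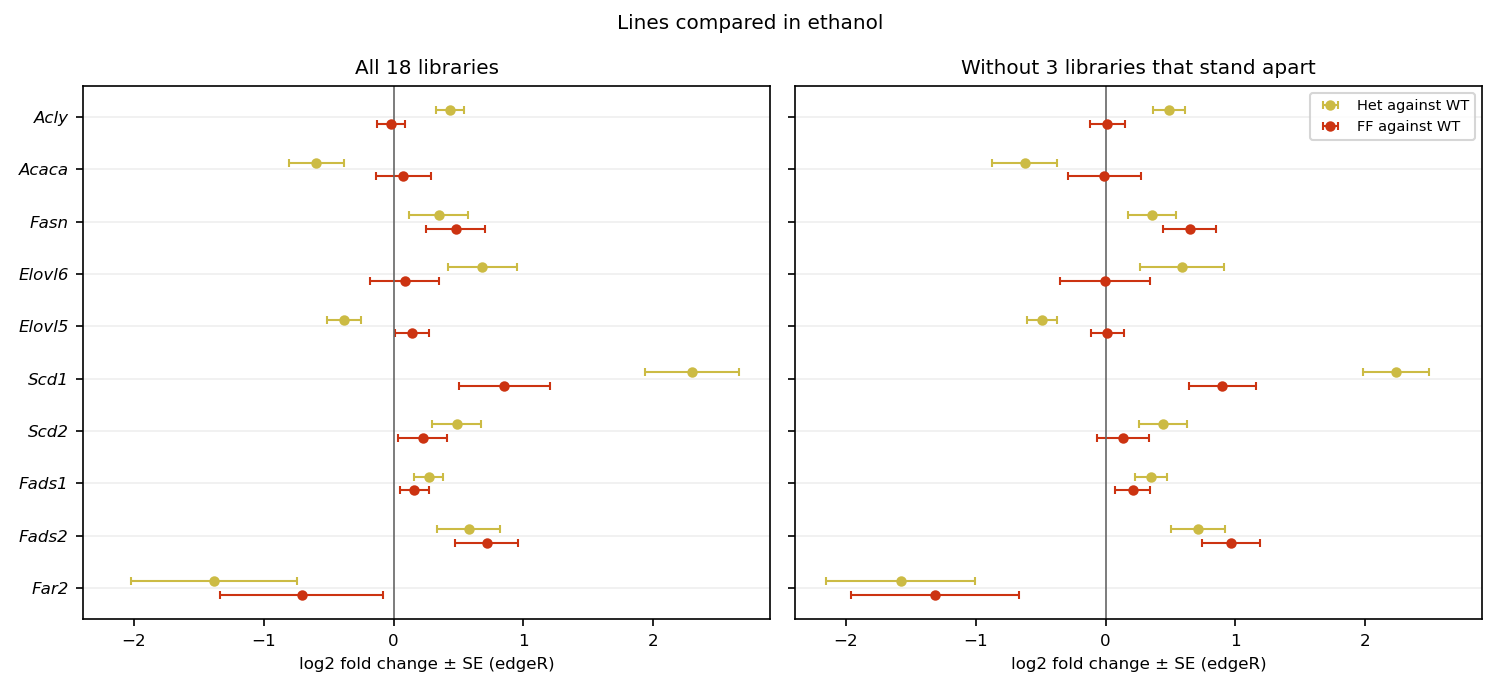
Log2 difference between lines in ethanol, Het against WT (yellow) and FF against WT (red), with ± SE bars from the edgeR fit, for all 18 libraries (left) and without the libraries labelled WT_EtOH C, WT_4OHT C and FF_EtOH C (right). Scd1 lies farthest right for Het, at 2.30 on the left and 2.24 on the right, while Acaca, Elovl5 and Far2 lie left of 0 for Het in both panels.

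FF and WT cells were compared in ethanol in the same way. The FF ethanol libraries are also part of the FF response that was known when the genes were chosen. The p-values of this comparison are therefore not free of that choice. With all libraries edgeR called 0 of the 10 genes, and 0 of all 12859, with 2 of 10 past an unadjusted p under 0.05, Scd1 and Fads2, both higher, where 4.15% of all genes were higher and 1.35% lower. For Scd1, Fads1 and Fads2 every FF library lay above every WT library, as for 4.11% of all genes. DESeq2 and limma voom also called 0 of 10. Scd1 was at 71.2, 101 and 65.2 CPM in FF and 41.8, 52.9 and 37.0 CPM in WT, without overlap (log2 0.85 ± 0.35, edgeR adjusted p = 0.846, range over alternatives 0.0229 to 1). Fads2 was at 215, 143 and 129.6 CPM against 82.2, 105 and 109.6 CPM (log2 0.72 ± 0.24, edgeR adjusted p = 0.757, range 0.0158 to 1).

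These calls changed without the library labelled FF_EtOH C and the one labelled WT_4OHT C. With both left out, Scd1 (log2 0.97), Fasn and Fads2 passed as higher, where 3.21% of all genes did. Without the 3 libraries only Fads2 passed (log2 0.97), where 2.7% of all genes did.

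Compared with Het in ethanol, FF cells had less Scd1 (log2 -1.44 ± 0.35, edgeR adjusted p = 0.00983) and less Acly (-0.46 ± 0.11, edgeR adjusted p = 0.00815), where 9.04% of all genes were called lower. They had more Acaca (0.67 ± 0.21, edgeR adjusted p = 0.0405) and more Elovl5 (0.52 ± 0.13, edgeR adjusted p = 0.0117), where 7.74% were called higher. Scd1 and Acly passed in all 12 alternatives and all 18 fits with 1 library left out, Elovl5 in 11 and 17, and Acaca in 7 and 7. The number called higher was 0 without Het_EtOH B and 1 without any 1 of the FF libraries, Het_EtOH A, Het_EtOH C, WT_EtOH A or WT_EtOH C. For these fits the share of all genes was not computed. This comparison and that of Het with WT share the Het libraries, as those with WT share the WT libraries. It also uses the FF ethanol libraries, which belong to the FF response known when the genes were chosen. Its adjusted p-values are thus not free of that choice either.

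Ordered by mean level over the 6 groups, Scd1 ran from Het ethanol (216 ± 29.1 CPM, SD, n = 3) through Het 4OHT (145 ± 34.7), FF ethanol (79.3 ± 19.5), WT 4OHT (48.3 ± 34.1) and WT ethanol (43.9 ± 8.15) to FF 4OHT (17.1 ± 3.52). FF ethanol, WT 4OHT and WT ethanol overlapped their neighbours in that order, and the other steps did not. FF 4OHT had the lowest mean for 8 of the 10 genes. The exceptions were lowest in Het 4OHT, Elovl5 with 89.9 ± 4.81 CPM (FF 4OHT 101 ± 9.93) and Acaca with 124 ± 48.7 CPM (FF 4OHT 129 ± 7.68). For Elovl5 and for Acaca these groups overlapped.

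Across the 18 libraries the log2 levels of Acly, Fads1, Fads2, Scd2 and Elovl6 followed Scd1 with Pearson r of 0.89, 0.88, 0.84, 0.84 and 0.84, while Fasn had 0.62, Far2 0.14, Acaca -0.05 and Elovl5 -0.22. Fads1 and Fads2 had r = 0.94 with each other. The 5 genes most like Scd1 among 8747 with a mean of at least 10 CPM were Gpt2 (0.97), Phykpl (0.95), Klf9 (0.95), Mthfd1l (0.95) and Tap2 (0.94). These are descriptions over libraries that share lines, treatments and depth.

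Neighbouring pathways were measured from lists of other genes. The lists were chosen with earlier results of these data known, and genes were named from them by lowest adjusted p in FF. The adjusted p-values given below for the FF response are therefore descriptions of the fit and not tests. In FF cells given 4OHT, all genes that passed in the supply, elongation, acyl-CoA, cholesterol and oxidation lists were lower, with all libraries and without 2 or 3 of them. The control and lipid droplet lists had calls in both directions over these fits. Among other genes of acetyl-CoA supply and synthesis, 1 of 10 tested fell and 0 rose, with 10 of 10 below 0 (median log2 -0.36). It was Acss1, a mitochondrial acetyl-CoA synthetase, at 8.20, 7.61 and 7.13 CPM in ethanol and 3.92, 4.22 and 3.66 CPM in 4OHT (-0.96 ± 0.19, edgeR adjusted p = 0.00462). Among other elongation, desaturation and alcohol genes 2 of 9 fell, with a median of -0.40. Tecr, the reductase of the elongation cycle, fell from 347, 199.5 and 202 CPM to 129, 132 and 128 CPM (-0.95 ± 0.20, edgeR adjusted p = 0.00627), with FF ethanol A far above B and C. Elovl3, the other, had a mean of 0.194 CPM over the 18 libraries and did not pass without the 3 libraries. It was at 0, 0 and 0.0416 CPM in FF 4OHT.

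Of 10 acyl-CoA synthetases and thioesterases 2 fell and 0 rose (median -0.15). These were Acsl3, which activates fatty acids (-1.11 ± 0.21, edgeR adjusted p = 0.00274), and the thioesterase Acot7 (-0.51 ± 0.11, edgeR adjusted p = 0.00631). Cholesterol synthesis, the sister pathway under SREBP, had 8 of 20 lower and 0 higher, with 20 of 20 below 0 and a median of -0.49. The WT response had 14 of 20 below 0, where 49.2% of all genes were. Without the library labelled FF_EtOH C and the one labelled WT_4OHT C it had 20 of 20 (median -0.22), where 54.2% of all genes were. Without the 3 libraries it had 19 of 20 (median -0.16), where 48.4% of all genes were. In each of these fits 0 were called. Nsdhl fell from 64.2, 64.0 and 64.8 CPM to 30.9, 33.9 and 28.9 CPM (-1.04 ± 0.12, edgeR adjusted p = 9.73e-05), and Dhcr7 (-0.71) and Tm7sf2 (-1.10) passed as well.

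Of 19 regulators and targets of SREBP, LXR and ChREBP, 2 fell and 3 rose (median -0.17). Scap, the SREBP escort protein, fell (-0.41 ± 0.11, edgeR adjusted p = 0.0195), as did Insig1, which holds Scap in the endoplasmic reticulum (-0.63 ± 0.17, edgeR adjusted p = 0.0230). Rxra, the partner receptor of LXR, rose from 3.55, 3.48 and 1.63 CPM to 7.33, 7.60 and 9.15 CPM (1.47 ± 0.32, edgeR adjusted p = 0.00735). The other 2 that rose, Abca1 and Abcg1, export lipid from cells, and neither passed without the 3 libraries. Srebf1, the SREBP gene tied to fatty acid synthesis, had a log2 fold change of -0.33 ± 0.12 (edgeR adjusted p = 0.0658), and Srebf2 of -0.15 ± 0.11 (edgeR adjusted p = 0.41). Srebf1, Srebf2, Abca1 and Abcg1 are named beyond the fixed rule, after their values were seen.

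Of the catabolic genes, 1 of 22 oxidation genes fell (median -0.01), Acadvl, the very-long-chain acyl-CoA dehydrogenase (-0.87 ± 0.12, edgeR adjusted p = 0.000383). Of 18 glycerolipid and lipid droplet genes 1 rose and 0 fell (median -0.03), Plin2, which coats lipid droplets, from 216, 215 and 158 CPM to 264, 338 and 412 CPM (0.79 ± 0.23, edgeR adjusted p = 0.0312). These calls turned with the libraries used: without 2 libraries 2 of the 18 fell and 0 rose, and without 3 libraries 2 fell and 1 rose. The median of all tested genes was -0.02, and 8.29% were called lower and 5.16% higher. Whether these lists differ from one another was not tested. In the Het and WT responses 0 of the 108 tested genes of all 7 lists passed. At an unadjusted p under 0.05 edgeR had 3 lower and 0 higher in Het (2.78% lower, against 1.13% lower and 0.785% higher of all genes). In WT it had 2 lower and 3 higher (1.85% and 2.78%, against 0.218% and 1.92% of all genes).

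**Figure D4:**
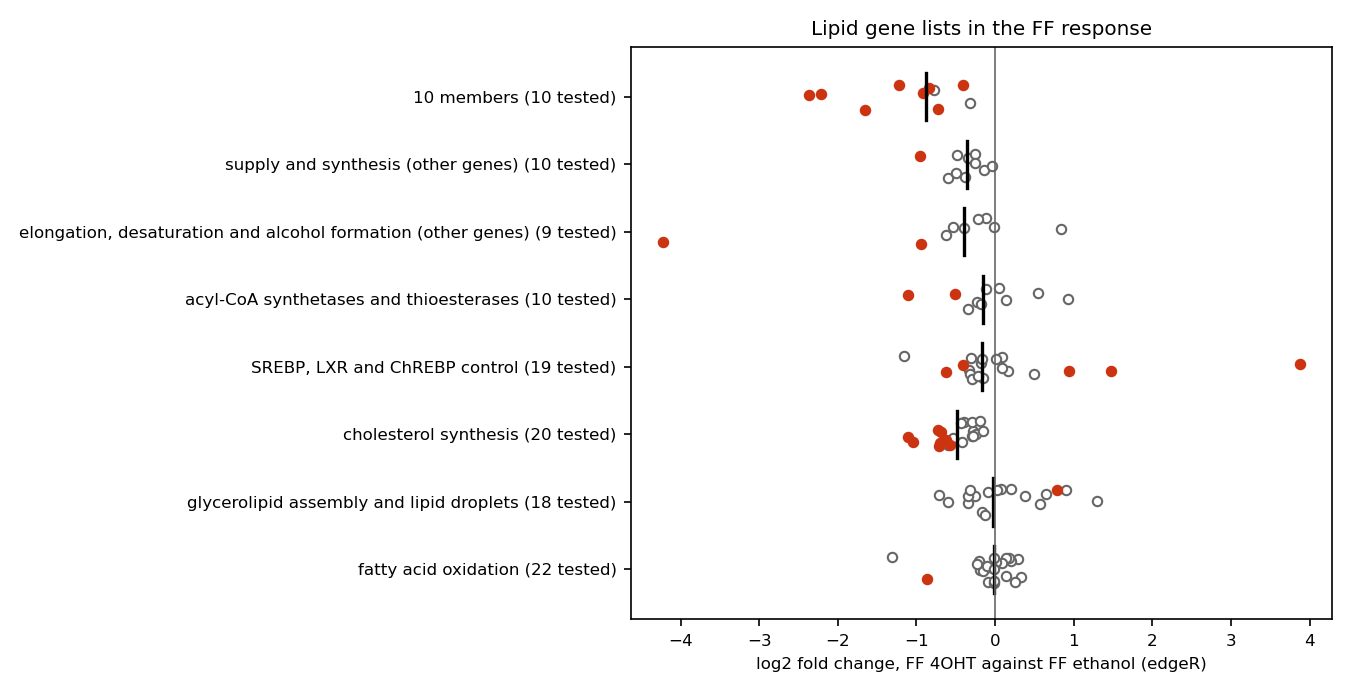
Log2 fold change of FF 4OHT against FF ethanol for the 10 genes and for 7 lists of other lipid genes, with the number tested. Each point is a gene, red where past an edgeR adjusted p of 0.05 over all tested genes, and the black bar is the list's median. The 10 genes have a median of -0.88 and cholesterol synthesis one of -0.49, while oxidation (-0.01) and glycerolipid genes (-0.03) sit around 0.

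The same lists were compared between Het and WT cells in ethanol. Of the 10 other supply and synthesis genes 5 were higher in Het and 0 lower. Among them were the acetyl-CoA synthetases Acss2 (1.87 ± 0.21, edgeR adjusted p = 1.22e-05) and Acss1 (1.52 ± 0.19, edgeR adjusted p = 3.98e-05). The others were Acacb (1.37), Me1 (0.94), which makes NADPH, and Slc25a1 (0.48), the mitochondrial citrate carrier. The control list had 7 of 19 higher and 1 lower, with Scap (-0.32) the lower one. Scap did not pass without 2 or without 3 libraries, where the list had 6 and 7 higher and 0 lower. Cholesterol synthesis had 2 of 20 higher and 1 lower, and oxidation 3 of 22 higher and 1 lower. Glycerolipid genes had 6 of 18 higher and 3 lower, acyl-CoA genes 3 of 10 higher and 1 lower, and elongation genes 1 of 9 higher and 1 lower. For comparison, 13.3% of all genes were higher and 10.4% lower.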

How the data were processed

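RNA was sequenced from 18 libraries, 3 in each of 6 groups, and groups were taken from the labels. The deposited values are raw counts, whole reads summed by gene symbol, for 24062 symbols and no summary entries. Per the submitters' processing notes, the tools were HISAT2 2.0.5, featureCounts 1.5.2, Subread, CASAVA 1.4 and FastQC 0.11.7, and the build was mm10. No source used here gives the strand setting, the annotation or the treatment of multi-mapping reads. Of 153 pairs of libraries 0 were identical, and the lowest chi-square of a pair, divided by genes, was 9.53, so each library counts once. At these depths 1 count is 0.0203 to 0.0404 CPM.

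Counts were tested with edgeR 4.0.16 in R 4.3.3: TMM scaling, filterByExpr with a minimum count of 10 (12859 genes kept), 1 fit to all 18 libraries with a mean per group, and the robust quasi-likelihood F test. P-values are Benjamini-Hochberg adjusted over all tested genes, with a threshold of 0.05. Levels are TMM-normalized CPM, given per kilobase of GENCODE M21 exon where genes are set beside each other. Correlations are of log2 CPM (prior count 2).

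The 10 genes and all lists were chosen with earlier results of these data known. Named genes are the 10, Ddx41, up to 3 genes of each pathway list past the threshold, lowest adjusted p in FF first, and the 5 genes most like Scd1. Genes named beyond that rule are Srebf1, Srebf2, Abca1, Abcg1, Ergic2, marker and quality genes, and the supply genes called in Het.

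Libraries of the same letter were checked for pairing by the correlation of their deviations from group means. In Het it was 0.48 (A), 0.70 (B) and 0.40 (C), and the letters pair there. In WT it was 0.39, -0.02 and 0.25 and in FF 0.17, 0.18 and 0.067. The highest correlation with another letter was -0.037, 0.16 and 0.044 in WT and -0.095, 0.014 and -0.035 in FF. In FF the same-letter value was the higher one for each letter, but at most 0.18, and for WT B it was the lower one. Pairing was read for Het alone.

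Alternatives were DESeq2 size factors, library size scaling, no count filter, a filter of 5 CPM or more in 3 libraries, the tools DESeq2 1.42.0 and limma voom (limma 3.58.1), the compared groups alone, a replicate block, an adjusted p of 0.01, each library left out, and fits without 2 or 3 libraries that go against their labels. A block within each line and a fit that also omits Het_4OHT A were added after the data had been seen.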

Additional observations from a re-analysis of the deposited data

Results flagged for a closer look

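The FF response to 4OHT differed from that of another line, past the edgeR threshold over all genes for the difference itself, in 6 cases. These values contain the comparison that was known when the genes were chosen. Against WT, the log2 difference was -2.35 ± 0.50 (SE) for Scd1, -1.18 ± 0.27 for Scd2, -0.77 ± 0.16 for Fads1 and -1.69 ± 0.35 for Fads2. Against Het it was -0.74 ± 0.16 for Fads1 and -1.46 ± 0.34 for Fads2. For all 4 genes the FF value was the lowest of the 3 lines. Of these 6 calls, Fads2 against WT, and Fads1 and Fads2 against Het, were kept without the libraries labelled FF_EtOH C, WT_4OHT C and WT_EtOH C. The groups have 3 libraries each, too few to judge a library as an outlier within its group.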

How the results depend on the processing

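In FF, all 10 genes stayed below 0 in every alternative and every fit without 1 library. The count called lower was 8, but 5 with limma voom and 4 at an adjusted p of 0.01, and 4 to 10 with 1 library left out. Here and below, the share of all genes was not computed for fits with 1 library left out. Changes in those counts cannot be told apart from changes over all genes. Without the 3 libraries that go against their labels and Het_4OHT A it was 10. The share of all genes called lower was 8.29%, but 6.93% with limma voom, 3.69% at 0.01 and 14.6% in that last fit. For the FF response minus the WT response, 4 genes were called lower. The count was 0 at an adjusted p of 0.01, 2 without 2 libraries, 1 without 3, and 0 to 5 with 1 left out. Over all genes 1.89% were called lower, against 0.342% at 0.01, 0.736% without 2 libraries and 0.484% without 3. For the FF response minus the Het response, 2 were called. The count was 1 in the compared groups alone, 0 at 0.01, 7 without the 3 libraries and Het_4OHT A, and 0 to 4 with 1 left out. Over all genes 2.09% were called lower, against 0.354% in the compared groups alone and 0.366% at 0.01. Without the 3 libraries and Het_4OHT A the share was 5.3%. For Het against WT in ethanol, 2 were called higher, against 6 with library size scaling, 5 with DESeq2, 6 in the compared groups alone, 4 without 2 libraries, 6 without the 3 and Het_4OHT A, and 2 to 4 with 1 left out. Of all genes 13.3% were called higher there and 10.4% lower, against 17% and 7% with library size scaling, 15.4% and 11.6% with DESeq2, 16.9% and 11.2% in the compared groups alone, 14.8% and 11% without 2 libraries, and 19.4% and 13.8% without the 3 and Het_4OHT A. Library size scaling moved the median log2 difference of all genes from -0.03 to 0.10. The 1 called lower there became 0 with DESeq2 size factors, library size scaling, no filter, the 5 CPM filter, limma voom, an adjusted p of 0.01 and without 2 libraries. It became 2 with DESeq2 and in the compared groups alone, 3 without the 3 and Het_4OHT A, and 0 to 2 with 1 left out. Shares of all genes called lower were 9.59% with DESeq2 size factors, 6.87% with no filter and 8.25% with the 5 CPM filter. They were 10.5% with limma voom and 5.85% at 0.01. For FF against Het in ethanol, 2 were called higher, against 1 with library size scaling, the 5 CPM filter, without 2 and without 3 libraries, 0 at 0.01, and 0 to 2 with 1 left out, while 2 to 3 were called lower. With library size scaling 5.11% of all genes were called higher there and 12% lower, against 7.74% and 9.04%. The share called higher was 6.44% with the 5 CPM filter, 7.02% without 2 libraries, 6.81% without 3 and 3.97% at 0.01. For FF against WT in ethanol the 0 called became 3 without 2 libraries, 1 without 3, and 3 without those and Het_4OHT A. It was 0 with 1 left out. The share of all genes called higher was 0% with all libraries. It was 3.21% without 2, 2.7% without 3 and 4.57% without those and Het_4OHT A. In the Het response, the WT response and their difference, 0 were called with 1 left out and in every alternative.

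WT values near 0 changed sign. Scd1 was -0.044 with limma voom, -0.61 without 2 libraries, and -0.71 without 3 or without those and Het_4OHT A. Fads2 was -0.026, -0.33, -0.24 and -0.24 in the same order. Without 2, without 3, and without those and Het_4OHT A, Fasn was -0.12, -0.16 and -0.16, Acaca -0.11, -0.18 and -0.18, and Acly -0.082, -0.073 and -0.073. In the Het response Elovl6 was 0.26 without the 3 libraries and Het_4OHT A. With 1 library left out, the log2 fold change of Elovl6 in Het ran from -0.38 to 0.27. In WT it ran from -0.11 to 0.090 for Acaca, -0.081 to 0.10 for Acly, -0.25 to 0.021 for Elovl6, -0.16 to 0.012 for Fads1, -0.33 to 0.27 for Fads2, -0.12 to 0.36 for Fasn, -0.61 to 0.45 for Scd1 and -0.29 to 0.077 for Scd2. The causes of these changes were not tested.

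With a replicate block over all lines, the WT value of Acaca was -0.00546, and with a replicate block within each line those of Scd1 and Fads2 were -0.078 and -0.029. With the block over all lines, 7 genes were called lower in FF, and with the block within each line 9. Of all genes 7.97% and 11.7% were called lower in these fits. Neither block changed a call of the Het response, where 0 of 10 genes passed and the letters pair. Far2 in FF 4OHT rests on 17 to 104 counts, and Elovl3 there on at most 0.0416 CPM, so depth limits both values.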
